A study of Mus musculus with 8 samples.

Results

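Monocyte and macrophage markers were examined in RNA from injured mouse hindlimb of the genotypes Psat1iKO and Ctrl. The set holds 53 gene symbols, classed here as 26 of inflammatory monocytes and macrophages and 27 of resident or repair macrophages. It was chosen by cell type knowledge but with earlier results of this comparison in view, selected on log2 fold changes that lay mostly below 0 in Psat1iKO, so those fold changes are given as a description and support nothing. Of the 53 symbols, 43 had at least 1 row in the authors' deposited table, which covers 16573 gene symbols. Chil3, Fcgr1, Fcgr3, Tlr2, Csf1r, Cd163, Lyve1, Timd4, C1qa and Gpnmb had none and were not analysed here.

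There were 4 libraries labelled Psat1iKO and 4 labelled Ctrl, all from tibialis anterior with extensor digitorum longus at day 3 after notexin (2 mg/mL), a phospholipase from snake venom that destroys muscle fibres. The labels name FACS-sorted muscle stem cells as the material, whereas the design text speaks of Trizol extraction from the muscles, and neither states mouse age, strain, the Cre driver or the deleted exons. Nothing says that libraries came from separate animals, so errors and p-values describe the spread between libraries, which may be technical. Values per library were not analysed here: the table gives each row's mean normalized count over all 8 libraries, a log2 fold change and its standard error. The depth of the libraries and any overlap between the groups are therefore unknown, and group means are rebuilt here by combining pooled mean with fold change and called fitted means. The targeted gene Psat1, a serine synthesis enzyme, stood at a log2 fold change of -0.49 ± 0.0675 (SE) per the authors' deposited table, with a DESeq2 adjusted p of 1.22e-09.

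After muscle injury, monocytes that carry Ly6C and the chemokine receptor CCR2 enter from the blood, clear necrotic fibres and release inflammatory cytokines. In the damaged tissue they become macrophages that take up dead cells, express complement C1q, scavenger receptors and lipid-handling genes, and release factors that act on muscle stem cells. A smaller population of macrophages lives in resting muscle between the fibres. Some genes used as macrophage markers, such as those of lysosomal cathepsins, Spp1 and Thbs1, are also transcribed by muscle stem cells, fibroblasts or vessel cells. The members were therefore divided into 31 myeloid-restricted genes, 23 of them with a row, and 22 genes also made by other cells of muscle, 20 of them with a row. This division was made with earlier results of these data known.

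Markers of monocytes and macrophages were present at low levels. The gene total per kilobase of the longest coding transcript had a median of 10.3 normalized counts over the 23 myeloid-restricted members. It was 141 over the 20 broadly made members and 2213 over 16 muscle stem cell and myoblast genes such as Pax7 and Myod1. Defining macrophage genes were not at 0: the mean normalized count of the leading row, the row of highest mean for a gene, was 59.95 for Adgre1 (F4/80), 177 for Cd68 and 39.7 for Itgam (CD11b). Fewer macrophages in the sequenced material and less of these transcripts per macrophage cannot be told apart in such bulk libraries. If that material was sorted muscle stem cells, as the labels say, any macrophages in it need not represent those of the muscle.

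Of the 43 measured members, 38 lay below 0 and 5 above 0 in log2 fold change of Psat1iKO against Ctrl, with a median of -1.52. Over all 16573 leading rows, 51.9% lay below 0 and the median was -0.01. The median of the 23 myeloid-restricted members was -2.05 (fold 0.242), their quartiles were -2.33 and -1.52, and 22 of 23 lay below 0. The 20 broadly made members had a median of -0.36 (fold 0.782), with 16 below 0. No member passed the authors' DESeq2 adjusted p of 0.05 (0 of 43, beside 0.338% of all leading rows), nor did any of the 64 rows of these genes (beside 0.656% of all rows). At an unadjusted p under 0.05, 7 members were lower and 0 higher, beside 2.23% lower and 1.86% higher of all leading rows. The rule that chose the members used this contrast, so nothing is read from these counts.

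**Figure D1:**
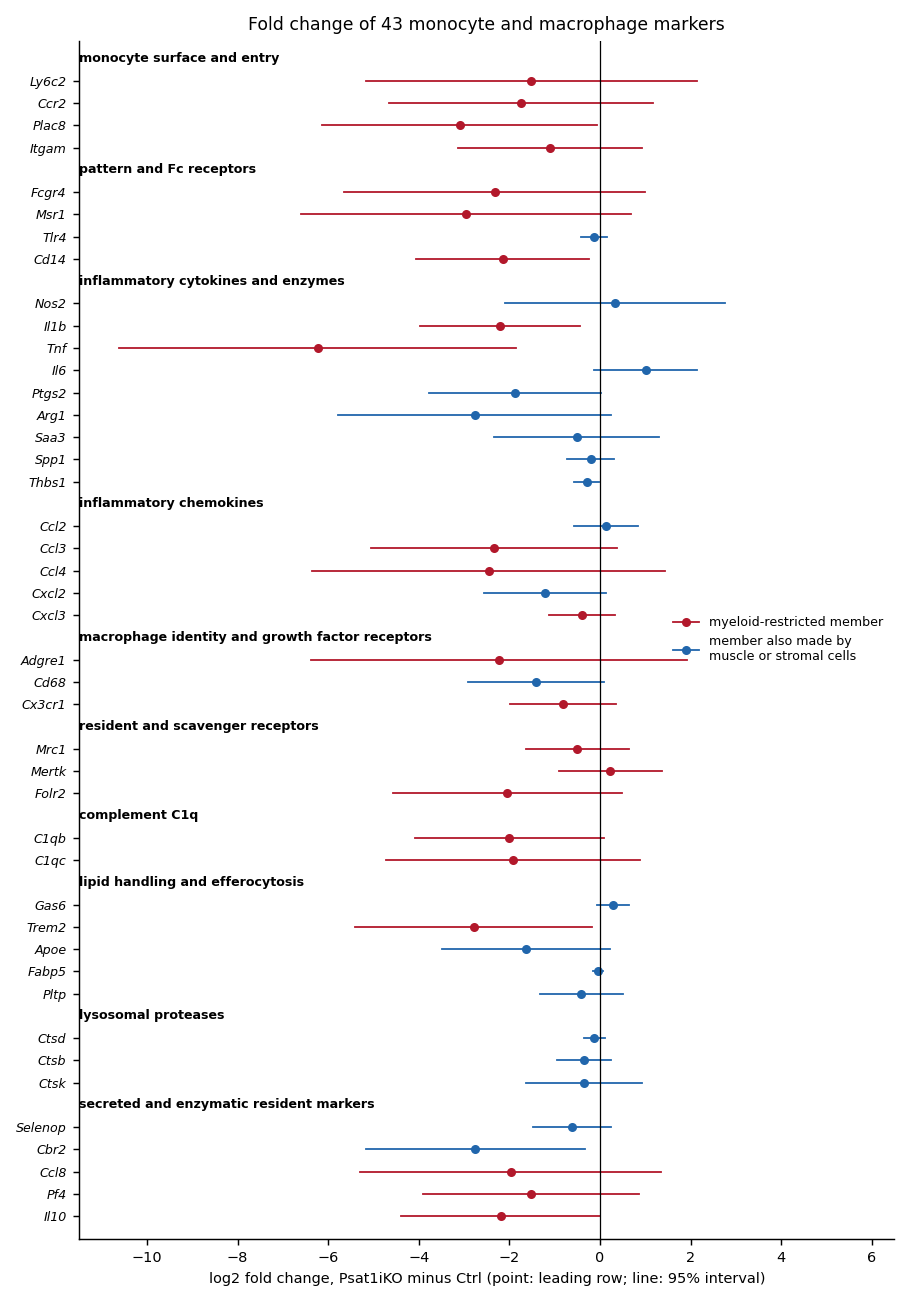
Log2 fold change, Psat1iKO minus Ctrl, of the leading row of each of 43 members, grouped by role, with 95% intervals from the authors' standard errors (n = 4 libraries in each group). Red points are myeloid-restricted members, 22 of 23 of them left of 0, and blue points are broadly made members, with several short intervals near 0.

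The 4 measured genes of monocyte entry lay below 0. Plac8, a marker of circulating inflammatory monocytes, had fitted means of 1.42 in Psat1iKO and 12.2 in Ctrl, and its log2 fold change in the authors' deposited table was -3.10 ± 1.55 (SE). Ccr2, the receptor through which monocytes leave the bone marrow and enter injured muscle, had 2.53 in Psat1iKO and 8.50 in Ctrl (-1.75 ± 1.49 in the authors' deposited table). Itgam, an integrin chain of all myeloid cells, had 25.2 in Psat1iKO and 54.2 in Ctrl, with -1.11 ± 1.04 in the authors' deposited table. Ly6c2, the Ly6C antigen itself, had 2.55 in Psat1iKO and 7.31 in Ctrl, at -1.52 ± 1.86 in the authors' deposited table. Only the 95% interval of Plac8, from -6.13 to -0.07, left out 0 among these 4. The longest Ly6c2 transcript shares 33% of its 50-base windows with other genes, first of all Ly6c1, an endothelial gene, and that of Itgam shares 72.4% with the overlapping annotation Gm49368, so counts of both are uncertain.

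Receptors for microbes and antibody lay apart by breadth. Cd14, the co-receptor for bacterial lipopolysaccharide, was the most abundant myeloid-restricted member, with fitted means of 147 in Psat1iKO and 654 in Ctrl, and the authors' deposited table gave a log2 fold change of -2.15 ± 0.97. Msr1, a scavenger receptor, had 1.66 in Psat1iKO and 12.9 in Ctrl (-2.96 ± 1.86 in the authors' deposited table). Fcgr4, an activating Fc receptor, had 2.04 in Psat1iKO and 10.2 in Ctrl, at -2.32 ± 1.70 in the authors' deposited table. Tlr4, the signalling receptor that takes lipopolysaccharide from CD14 and is also found on muscle and stromal cells, had 300 in Psat1iKO and 329 in Ctrl. The authors' deposited table gave it -0.13 ± 0.149 on the log2 scale, with a 95% interval from -0.43 to 0.16 that lies inside a 2-fold change. The pair that senses the same ligand thus differed in breadth and in fold change, and that difference was not tested.

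Inflammatory cytokines held the members of smallest p, Tnf and Il1b. Both are NF-kB target genes in macrophages, and their promoters are shown as the 250 bases upstream of the RefSeq start (build GRCm38.p6), 5′ to 3′ on the gene's strand. Capitals mark GAGGAA, the core bound by the myeloid factor PU.1, TATAAA, and forms of TTGCNNAA (C/EBP), TGANTCA (AP-1) and NF-kB decamers, on either strand. Tnf lies at chr17:35202008-35202257, minus strand, for the stretch shown, and Il1b at chr2:129371140-129371389, minus strand.
Tnf: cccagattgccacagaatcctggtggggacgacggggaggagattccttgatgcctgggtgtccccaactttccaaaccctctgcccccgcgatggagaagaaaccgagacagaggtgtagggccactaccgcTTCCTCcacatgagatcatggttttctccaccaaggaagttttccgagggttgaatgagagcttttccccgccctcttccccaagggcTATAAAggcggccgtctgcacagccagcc
Il1b: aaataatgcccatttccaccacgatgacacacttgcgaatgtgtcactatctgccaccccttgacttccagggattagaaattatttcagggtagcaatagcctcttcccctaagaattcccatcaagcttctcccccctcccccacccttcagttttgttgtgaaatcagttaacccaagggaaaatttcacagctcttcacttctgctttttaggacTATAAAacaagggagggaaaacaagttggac
The Tnf stretch holds GAGGAA on the opposite strand 117 bases and TATAAA 29 bases before the start, and the Il1b stretch holds TATAAA 31 bases before the start.

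Tnf had fitted means of 0.171 in Psat1iKO and 12.9 in Ctrl, and the authors' deposited table gave a log2 fold change of -6.23 ± 2.24. Its fitted mean in Psat1iKO lies below 0.75, the mean that 3 counts over 4 libraries give, so that fitted fold change is no bound. Il1b, the precursor of interleukin-1 beta, had 48.1 in Psat1iKO and 224 in Ctrl, with -2.22 ± 0.901 in the authors' deposited table and a 95% interval from -3.98 to -0.45. Ptgs2, the inducible cyclooxygenase, had 62.7 in Psat1iKO and 230 in Ctrl (-1.88 ± 0.974 in the authors' deposited table). Thbs1, a matrix glycoprotein made by many cells, was far more abundant, with 12094 in Psat1iKO and 14866 in Ctrl, and had -0.30 ± 0.137 in the authors' deposited table. Spp1, osteopontin, the member of highest mean count, had 17038 in Psat1iKO and 19667 in Ctrl, at -0.21 ± 0.262 in the authors' deposited table. Il6 and Nos2, picked out here after their values were seen, lay above 0. Il6, a cytokine that muscle cells also release, had 229 in Psat1iKO and 113 in Ctrl (1.01 ± 0.579 in the authors' deposited table), and Nos2, inducible nitric oxide synthase, stood at 0.34 ± 1.24 in that table. The authors' deposited table put Arg1 at -2.76 and Saa3 at -0.52 on the log2 scale, each with a mean count under 10.

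The inflammatory chemokines sit in a pair of gene clusters. Ccl2, Ccl8, Ccl3 and Ccl4 lie on chromosome 11 and Pf4, Cxcl3 and Cxcl2 on chromosome 5, in GRCm38. The promoters of the paralogs Cxcl2 (chr5:90903649-90903898, plus strand) and Cxcl3 (chr5:90785851-90786100, plus strand) are shown because they are the only member promoters in which an NF-kB decamer was found, with capitals as above.
Cxcl2: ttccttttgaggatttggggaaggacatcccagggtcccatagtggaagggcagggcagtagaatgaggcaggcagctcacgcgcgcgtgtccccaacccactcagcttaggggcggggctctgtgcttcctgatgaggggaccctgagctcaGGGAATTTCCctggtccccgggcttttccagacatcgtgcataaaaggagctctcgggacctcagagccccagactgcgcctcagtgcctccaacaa
Cxcl3: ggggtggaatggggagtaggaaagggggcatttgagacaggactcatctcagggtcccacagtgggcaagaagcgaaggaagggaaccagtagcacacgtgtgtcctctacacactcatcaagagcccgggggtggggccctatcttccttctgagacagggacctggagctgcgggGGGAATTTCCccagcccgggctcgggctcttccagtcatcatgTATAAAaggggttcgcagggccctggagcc
The decamer lies 97 bases before the start of Cxcl2 and 73 bases before that of Cxcl3, which also has TATAAA 30 bases before the start.

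Of these chemokines, 4 of 5 lay below 0. Cxcl2, which draws neutrophils, had fitted means of 278 in Psat1iKO and 642 in Ctrl, and the authors' deposited table gave a log2 change of -1.21 ± 0.688. Cxcl3 had 112 in Psat1iKO and 147 in Ctrl, at -0.40 ± 0.370 in the authors' deposited table, so these paralogs, both with an NF-kB decamer, stood at different fold changes, a difference that was not tested. Ccl3 and Ccl4, which attract monocytes and other white blood cells, were neighbours in value too, with -2.33 ± 1.38 and -2.46 ± 1.99 in the authors' deposited table. Ccl3 had 5.34 in Psat1iKO and 26.9 in Ctrl, and Ccl4 had 1.70 in Psat1iKO and 9.36 in Ctrl. Ccl2, the CCR2 ligand that calls monocytes into injured muscle and is made by many cells, had 1019 in Psat1iKO and 927 in Ctrl. The authors' deposited table gave it 0.14 ± 0.363 on the log2 scale, with a 95% interval from -0.57 to 0.85, inside a 2-fold change, while its receptor Ccr2 stood at -1.75.

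Genes that define macrophages as such lay below 0 in all 3 measured cases. Adgre1, the F4/80 antigen, had 21.1 in Psat1iKO and 98.8 in Ctrl, and its log2 fold change in the authors' deposited table was -2.23 ± 2.12. Cd68, a lysosomal glycoprotein, had 96.9 in Psat1iKO and 258 in Ctrl (-1.41 ± 0.763 in the authors' deposited table). Cx3cr1, the fractalkine receptor of resident and maturing macrophages, had 17.2 in Psat1iKO and 30.3 in Ctrl, at -0.82 ± 0.6 in the authors' deposited table. All 3 intervals included 0. Of the resident scavenger receptors, Folr2, a folate receptor of tissue macrophages, had 4.83 in Psat1iKO and 19.9 in Ctrl (-2.05 ± 1.29 in the authors' deposited table). Its transcript shares 56.7% of 50-base windows with other annotations. Mrc1, the mannose receptor CD206, had 66.7 in Psat1iKO and 94.2 in Ctrl, with -0.50 ± 0.579 in the authors' deposited table. Mertk, a receptor for apoptotic cells, was the 1 myeloid-restricted member above 0, with 23.9 in Psat1iKO and 20.3 in Ctrl (0.23 ± 0.583 in the authors' deposited table).

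Complement C1q is built of chains encoded by C1qa, C1qb and C1qc, which stand side by side on chromosome 4 and are made mainly by macrophages. The promoters of the pair with a row, C1qb (chr4:136886201-136886450, minus strand) and C1qc (chr4:136892915-136893164, minus strand), each hold 1 GAGGAA, 30 and 193 bases before the start.
C1qb: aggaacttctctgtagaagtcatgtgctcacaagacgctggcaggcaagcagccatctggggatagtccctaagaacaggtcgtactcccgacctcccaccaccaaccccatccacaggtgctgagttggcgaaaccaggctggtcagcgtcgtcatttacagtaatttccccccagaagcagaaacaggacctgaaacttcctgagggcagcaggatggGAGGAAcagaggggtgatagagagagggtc
C1qc: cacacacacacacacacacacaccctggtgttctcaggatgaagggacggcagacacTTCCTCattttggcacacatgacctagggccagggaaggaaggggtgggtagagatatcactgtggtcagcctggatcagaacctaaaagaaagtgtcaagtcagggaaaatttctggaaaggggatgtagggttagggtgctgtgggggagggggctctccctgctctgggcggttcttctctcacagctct
C1qb had fitted means of 40.4 in Psat1iKO and 162 in Ctrl, and C1qc had 23.3 in Psat1iKO and 88.5 in Ctrl. Their log2 fold changes in the authors' deposited table were -2.0 ± 1.07 for C1qb and -1.92 ± 1.43 for C1qc, so these subunits of 1 complex had nearly the same fitted fold. They lie 2.85 and 2.84 Mb from Pax7 (chr4:139737062-139833528, GENCODE M21, GRCm38). Within 20 Mb of Pax7, 3.78% of 450 leading rows were called, against 0.25% of 14805 placed elsewhere. Neither C1q gene was called, no other measured member lies in that window, and the part of this position in their values was not tested. The 43 measured members lie on 14 chromosomes.

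Genes of lipid handling and of dead-cell uptake were mixed. Trem2, a lipid receptor of phagocytic macrophages, had 9.87 in Psat1iKO and 68.2 in Ctrl, and the authors' deposited table gave a log2 fold change of -2.79 ± 1.34. Apoe, apolipoprotein E, had 457 in Psat1iKO and 1420 in Ctrl (-1.64 ± 0.942 in the authors' deposited table). Gas6, a secreted ligand of MERTK, had 324 in Psat1iKO and 265 in Ctrl, at 0.29 ± 0.182 in the authors' deposited table. With Il6, Nos2, Ccl2 and Mertk it makes up the 5 members above 0, a group named after its values were seen. Pltp, a phospholipid transfer protein, had 67.0 in Psat1iKO and 89.0 in Ctrl (-0.41 ± 0.467 in the authors' deposited table). Fabp5, a fatty acid binding protein of many cell types, was level, with 3921 in Psat1iKO and 4034 in Ctrl, and the 95% interval of its log2 fold change in the authors' deposited table ran from -0.15 to 0.07.

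The lysosomal proteases, which all cells hold and macrophages hold in bulk, stood closer to 0. Ctsd, cathepsin D, had 10825 in Psat1iKO and 11791 in Ctrl, with -0.12 ± 0.122 in the authors' deposited table. Ctsb, cathepsin B, had 3728 in Psat1iKO and 4761 in Ctrl (-0.35 ± 0.302 in the authors' deposited table), and Ctsk, cathepsin K, had 32.6 in Psat1iKO and 41.8 in Ctrl, at -0.36 ± 0.651 in the authors' deposited table. The intervals of Ctsd and Ctsb lay inside a 2-fold change.

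Secreted and enzymatic markers of resident macrophages all lay below 0. Cbr2, a carbonyl reductase, is shown as the member of smallest unadjusted p in this group and has GAGGAA 79 bases before its start (chr11:120732022-120732271, minus strand).
Cbr2: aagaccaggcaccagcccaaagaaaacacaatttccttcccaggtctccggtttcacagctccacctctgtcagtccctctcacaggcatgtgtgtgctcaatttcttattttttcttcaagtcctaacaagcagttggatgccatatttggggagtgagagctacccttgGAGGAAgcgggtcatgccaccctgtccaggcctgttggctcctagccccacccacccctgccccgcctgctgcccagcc
Cbr2 had fitted means of 2.41 in Psat1iKO and 16.2 in Ctrl, and the authors' deposited table gave a log2 fold change of -2.75 ± 1.23. Il10, the anti-inflammatory cytokine, had 17.7 in Psat1iKO and 81.2 in Ctrl (-2.19 ± 1.12 in the authors' deposited table), next to the -2.22 of the inflammatory Il1b. Pf4, platelet factor 4, which macrophages also make, had 15.2 in Psat1iKO and 43.6 in Ctrl, at -1.52 ± 1.21 in the authors' deposited table. Selenop, a selenium carrier protein, had 285 in Psat1iKO and 436 in Ctrl (-0.62 ± 0.441 in the authors' deposited table), and Ccl8 stood at -1.97 there.

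**Figure D2:**
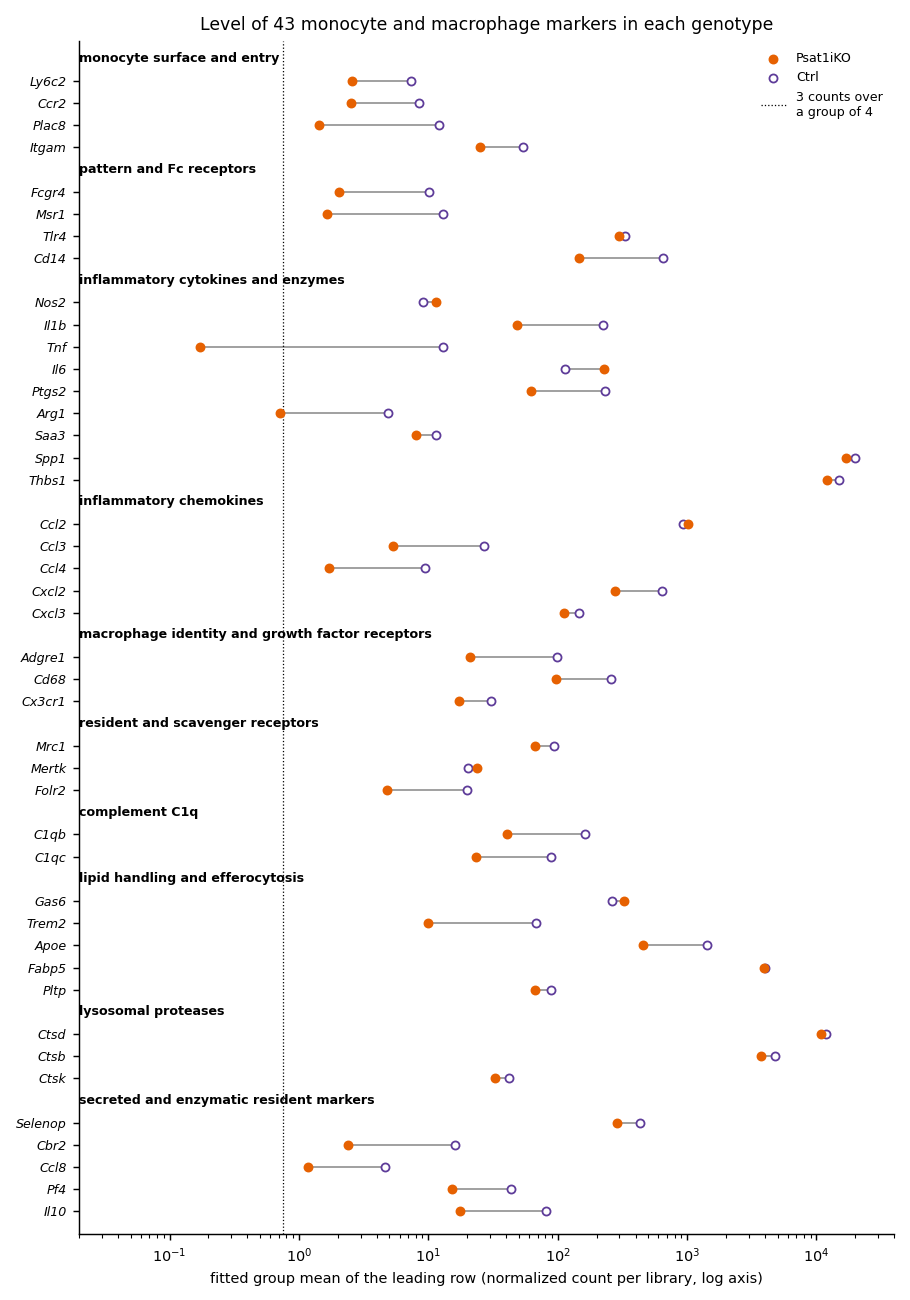
Fitted group means of the leading row of each of 43 members on a log axis of normalized counts per library, filled for Psat1iKO and open for Ctrl (rebuilt from the pooled mean and fold change, so no error bars). The dotted line at 0.75 is the mean that 3 counts over a group of 4 libraries give, and Tnf and Arg1 in Psat1iKO lie below it.

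The order of inflammatory and resident or repair members depended on which rows were counted. It also rests on the classing: Adgre1 and Cd68, which define macrophages as such, count as resident or repair. Arg1, also used as a marker of repair macrophages, counts as inflammatory. On leading rows the median was -1.63 over 22 inflammatory members (19 below 0) and -1.41 over 21 resident or repair members (19 below 0). Over every row it was -1.61 for inflammatory and -0.62 for resident or repair genes, and with means of at least 10 the order turned round, to -0.40 for inflammatory and -0.82 for resident or repair members. Among myeloid-restricted genes the median on leading rows was -2.27 over 12 inflammatory and -1.97 over 11 resident or repair members. Among broadly made genes it was -0.25 over 10 inflammatory and -0.38 over 10 resident or repair members. On leading rows the gap between restricted and broadly made genes was larger than that between inflammatory and resident or repair genes, as a description without a test. Because breadth was assigned with earlier results of these data known, nothing is read from the larger gap.

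Members of high and low count differed in median, and breadth moved with count. The 18 members with a mean normalized count of at least 100 had a median log2 fold change of -0.38 and the 25 below 100 had -1.97. Of the 18, 14 were broadly made (median -0.25) and 4 were myeloid-restricted (Cd14, Il1b, C1qb and Cxcl3, median -2.08). Of the 25, 19 were myeloid-restricted, with a median of -2.05, and 6 were broadly made, with -0.46. So the myeloid-restricted members had nearly the same median on either side of 100. Of the 25 members under a mean of 100, 18 were at least 2-fold lower, beside 8.92% of all leading rows under that mean, and of all 43 members 25 were, beside 3.61% of all leading rows. The sum of fitted means over the 23 myeloid-restricted members was 591 in Psat1iKO and 1891 in Ctrl (fold 0.313), and without Cd14, which gave 32.3% of the pooled sum, it was 444 in Psat1iKO and 1237 in Ctrl. Over the 20 broadly made members the sum was 50778 in Psat1iKO and 59912 in Ctrl.

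The standard errors of these markers were wide on leading rows. The rule did not use them, yet they are not independent of the fold changes it used. A low fitted mean in either group widens the error, so the errors are given as a description only. Of the 43 members, 38 had an error above the median of all leading rows in the same class of mean count, with a median ratio of 1.90. Over every row of these genes, set beside all rows of the class, the median ratio was 1.09. Cd14 had the highest ratio, 6.78, its error of 0.97 standing beside a median of 0.143 in its class. Apoe followed with 6.58 and Adgre1 had 4.95, while Gas6 and Fabp5 had 0.71 and 0.786. Muscle stem cell and myoblast genes had a median ratio of 1.76 in their own classes, so a raised ratio was not particular to macrophage genes. The errors were also turned into a coefficient of variation between libraries, which the negative binomial model implies for rows with at least 10 in both fitted means. It had a median of 97.6% over 12 myeloid-restricted members, from 35.2% for Cxcl3 to 207% for Adgre1. This variation falls with count, so it was read within classes of mean count. With means from 10 to 30 the median was 54.8% for the 3 restricted members (Cx3cr1, Mertk and Pf4) and 52.9% for all leading rows. From 30 to 100 it was 108% for 5 restricted members and 39.1% for all leading rows, and from 100 to 300 it was 87.6% for 3 and 23.9% for all. Cd14, alone in its class, had 94.9%, beside 13.4% for all leading rows there.

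**Figure D3:**
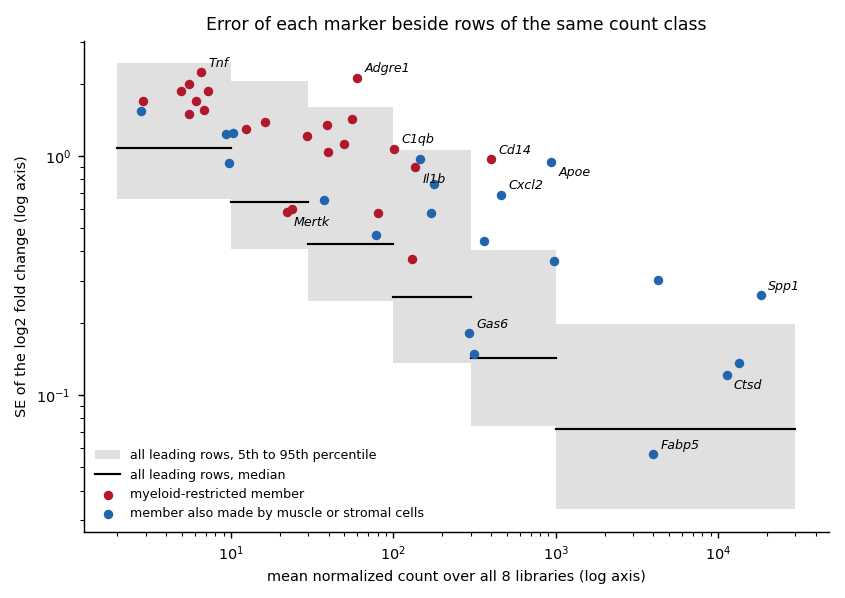
Standard error of the log2 fold change against mean normalized count, both on log axes, for myeloid-restricted members (red) and broadly made members (blue), with the median and the 5th to 95th percentiles of all leading rows in each class of mean count. Cd14, Apoe, Cxcl2 and Adgre1 are among the members above the band of their class, and Fabp5 and Gas6 are among those below the class median.

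Other myeloid genes, from a list of 54 that holds no member, followed a like pattern. The list was written with earlier results of these data known and was read in the same 8 libraries. Its values are thus a description and no separate support. Of 44 with a row, 39 lay below 0, with a median of -1.30, and 0 were called (0.338% of all leading rows were). At an unadjusted p under 0.05, 15 of the 44 were lower and 0 higher, beside 2.23% lower and 1.86% higher of all leading rows. Lyz2, lysozyme of macrophages and neutrophils, had fitted means of 299 in Psat1iKO and 1849 in Ctrl, with -2.63 ± 1.14 in the authors' deposited table. Cd53, a tetraspanin of white blood cells, stood at -2.88 ± 1.18 and Clec4e, a receptor for fungal and mycobacterial lipid, at -2.78 ± 1.16 in the authors' deposited table. Genes of this list that other cells also transcribe stood near 0, with -0.18 ± 0.0709 for Lgals3, galectin-3, and 0.22 ± 0.149 for the matrix proteoglycan Vcan in the authors' deposited table. Fibronectin (Fn1), heme oxygenase (Hmox1) and the transcription factor Cebpb had -0.10, 0.07 and -0.04 in the authors' deposited table.

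Markers of other cells were read beside these. Of 15 neutrophil markers 6 had a row, with a median log2 fold change of 0.03, and their summed fitted means were 626 in Psat1iKO and 620 in Ctrl. Cxcr2 and Mmp9, with mean counts of 502 and 103, made up most of that sum, while S100a9 and Mmp8, with means under 10, stood at -3.33 ± 2.33 and -2.71 ± 2.22 per the authors' deposited table. Dendritic cell markers had a median of -0.28 over 10 genes, T and NK cell markers -0.01 over 5, and endothelial markers -0.38 over 14. Single genes of these lists lay as low as the macrophage genes: in the authors' deposited table the antigen-presentation genes Cd74 and H2-Ab1 stood at -1.93 ± 0.974 and -1.49 ± 0.948, the integrin gene Itgax at -1.89 ± 1.0 and the interleukin-7 receptor gene Il7r at -3.45 ± 1.36. The dendritic cell factor Batf3 stood at 1.98 ± 0.997 there. Of 13 pericyte and smooth muscle markers, 10 lay above 0 with a median of 0.55, and their sums, mostly from Des, which muscle cells also make, were 56794 in Psat1iKO and 56750 in Ctrl. Fibro-adipogenic progenitor markers stood at 0.07 over 13 genes, and muscle stem cell and myoblast markers at 0.06 over 16. Of those 16, 1 was called, beside 0.338% of all leading rows: Myod1, at 0.16 ± 0.0386 in the authors' deposited table. The part of these cell types in the macrophage values was not tested.

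**Figure D4:**
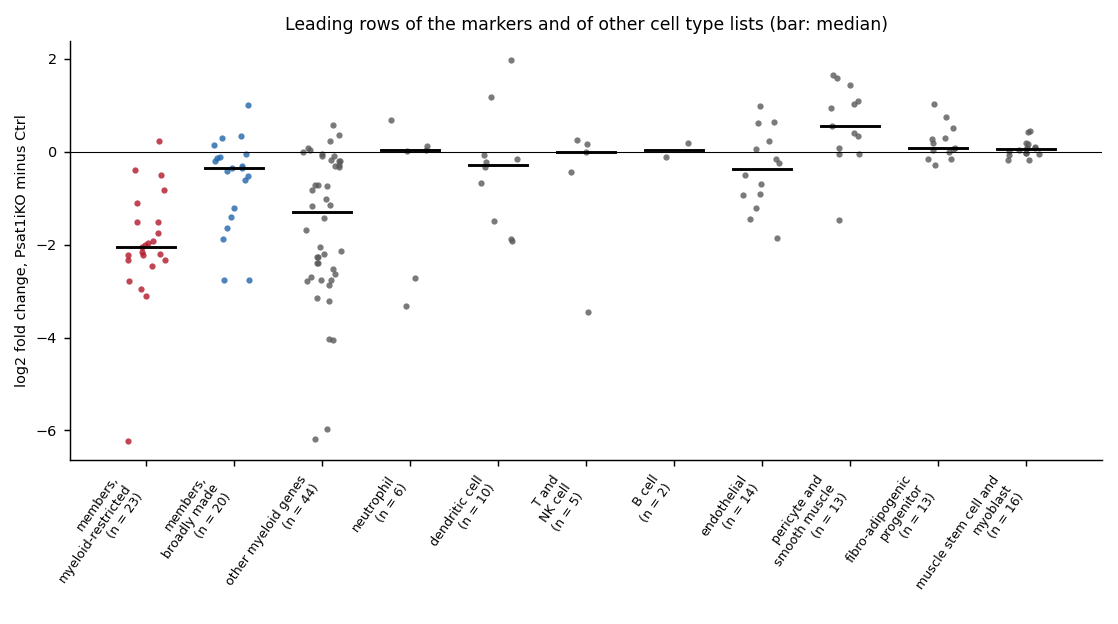
Log2 fold change, Psat1iKO minus Ctrl, of leading rows, with a bar at the median of each list. Myeloid-restricted members have a median of -2.05 and other myeloid genes -1.30, while muscle stem cell and myoblast genes lie close to 0.

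Promoters of the members shared sequence features that the rule did not use. RefSeq promoters (GRCm38.p6) were at hand for 38 of the 53 members, 47 promoters in all, and 250 bases upstream of each start were searched on both strands. GAGGAA, the PU.1 core, was in 26 of 47 member promoters (55.3%) against 23.3% of all 32851 promoters, and in 57.1% of those of myeloid-restricted and 52.6% of those of broadly made members. TTGCNNAA, a C/EBP form, was in 23.4% of member promoters against 9.56% of all, in 14.3% of those of myeloid-restricted and 36.8% of those of broadly made members. TGANTCA, an AP-1 form, was in 8.51% against 6.75%, and TATAAA in 14.9% against 12.4%. A decamer of NF-kB, searched in 2 forms, was in 2 member promoters, those of Cxcl2 and Cxcl3 shown above, and in 0.225% of all. No motif searched contains another, and a match is a description of letters, not of binding.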

How the data were processed

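RNA of 8 libraries, 4 Psat1iKO and 4 Ctrl, was compared by the authors. The submitters' processing notes name the aligner HISAT2 2.2.1 and build mm10, and give DESeq2, with which the authors compared groups, a version of 4.2.0. Counting program, annotation, filters and strand setting: not given in the sources used here. The authors' deposited table holds 36743 rows for 16573 symbols: a signal (the mean normalized count over all libraries, lowest 2.22), a log2 fold change with its error, a Wald score and a p-value with its adjusted value. The deposited fold change is Ctrl over Psat1iKO and was turned round here, with the sign checked on Eno1b, which is in the authors' list of genes higher in Psat1iKO. Deposited enrichment tables (log10 of p and q) name 0 members.

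Rows were assigned by symbol after removal of a final dot and digits, and the row of highest mean stands for a gene. Benjamini-Hochberg adjustment of the deposited p over all rows gave the authors' adjusted p to within 1.39e-05. Rows are said to be called where the authors' DESeq2 adjusted p is under 0.05. Fitted means assume equal group sizes, and 95% intervals are the fold change ± 1.96 errors. The coefficient of variation was solved from the error and fitted means. The arithmetic of these steps was checked on simulated data. The simulated errors were computed from known variation, so recovery of variation from the authors' DESeq2 errors was not tested. Coordinates are from GENCODE M21 and promoters from RefSeq (Python 3.11.15, pandas 2.3.3).

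The members and lists, and the division into myeloid-restricted and broadly made genes, were chosen with earlier results of these data known. Full values are given for up to 4 members of smallest p and that of highest mean in each role. No values per library were analysed here, so depth is unknown and no count test, other normalization or omission of libraries was run.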

Additional observations from a re-analysis of the deposited data

How the results depend on the processing

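Of 57 alternative values, 43 stayed near the reported value (medians within the median error of the list, counts within 1.5 times), and no median changed sign. That limit was wide, with a median error of 0.97 over members and 1.1 over other myeloid genes. Values counted as near include -0.72 over all members with means of at least 10, against -1.52. They also include -0.245 over other myeloid genes with means of at least 100, against -1.30. The median log2 fold change of myeloid-restricted members ranged from -2.15 to -1.08 over its 6 alternatives. With means of at least 100, which leaves 4 myeloid-restricted and 14 broadly made members, the median was -0.38 over all members, -0.35 over inflammatory and -0.48 over resident or repair members, and 15 members lay below 0. With means of at least 10 the inflammatory median was -0.40. Over every row the resident or repair median was -0.62 and the median error ratio was 1.09. In means weighted by the inverse squared error, an alternative chosen after seeing the data in which precise and abundant genes dominate, members had -0.14, inflammatory -0.30, resident or repair -0.0903 and other myeloid genes -0.14. The log2 ratio of summed fitted means was -0.27 over all members, -1.68 over myeloid-restricted ones. Raising fitted means under 0.75 to that floor moved no median. It could not, because the few genes under the floor stayed below the medians, and these values are among the 43 counted as near. Rows called in these alternatives numbered 37 among leading rows alone and 85 where the mean was 100 or more, against 241 in the whole table. Members called stayed at 0 in each. By the authors' adjusted p over all rows, 56 leading rows were called, so the 37 rests on another adjustment than the authors'. No paired analysis was possible because the analysed table carries no values per library, and for the same reason no library was left out. Depth is unknown, and single fold changes at low means are imprecise. The median error of all leading rows was 0.88 under a mean of 100 and 0.113 at 100 or more.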

Other observations

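Of the 43 measured members, 15 had more than 1 row, which gave 21 minor rows. Of these, 16 lay below 0 and 5 above 0, and 0 were called by the authors' DESeq2 adjusted p, with 0.287 (Tnf) as the lowest adjusted p of any member row. Of the minor rows, 9 had a mean under 10 and 6 an absolute log2 fold change over 4. Rows of a gene could stand far apart: Selenop had -0.62 ± 0.441 on its leading row and 4.21 ± 2.80 on a row with 3.41% of its total in the authors' deposited table. Summed over rows, the gene total kept the sign of the leading row for all 43 members.

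Apoe had 4 rows, all below 0. The authors' deposited table put them at -1.64 ± 0.942, -1.01 ± 0.932, -0.58 ± 0.372 and -0.40 ± 0.629, in the order of their mean counts of 938, 483, 137 and 85.0. The gene total was 960 in Psat1iKO and 2325 in Ctrl. The myeloid genes Spi1, which encodes PU.1, and Cebpb and Cebpa, which encode C/EBP factors, were named here after the promoter search. Their log2 fold changes were -6.18 ± 2.73 (Spi1), -0.04 ± 0.128 (Cebpb) and 0.57 ± 0.616 (Cebpa), per the authors' deposited table. Fitted means were 0.909 in Psat1iKO and 65.9 in Ctrl for Spi1, and 282 in Psat1iKO and 190 in Ctrl for Cebpa. With so low a fitted mean in Psat1iKO and so wide an error, the size of the Spi1 fold change is uncertain. The part of these factors in the member values was not tested.

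Of the 53 members, 20 share at least 1 window of 50 bases between their longest coding transcript and transcripts of another gene, and 14 share over 5% of windows. Ctsd shares 36.6%, Fabp5 21.1%, Selenop 19.1%, Ctsb 15.4%, Cbr2 15.1% and Pltp 14.2%. Cxcl3 shares 6.31% and Cxcl2 3.37%, with each other first. How the authors' counting divided such reads is not given in the sources used here.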
